A study of Mus musculus with 4 samples.

Results

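The 10 genes described here encode the chains of interleukin receptors through which CD8+ T cells sense IL-2, IL-7, IL-12, IL-15, IL-18 and IL-21. They are defined by gene symbol and are 10 of the 54532 genes in the deposited count table. RNA was sequenced from 4 samples of naive CD8+ T cells, isolated from the spleens of C57BL/6 mice by magnetic separation. The cells were activated for 48 h with antibodies to CD3 and CD28, which engage the T cell receptor and its main costimulatory receptor. The 2 control samples received this stimulation alone, and the 2 IFNα samples also received IFNα, a type I interferon, at 2000 U/ml. The comparison asks how direct exposure to IFNα changes the receptor genes of a T cell that is being activated. No source used here says that the samples of a group came from separate mice or cultures, so each p-value is set against a spread between samples that may be technical.

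These receptors fall into 3 families. The common γ chain, encoded by Il2rg, pairs with the private chains for IL-7 (Il7r) and IL-21 (Il21r), and with the shared β chain (Il2rb) for both IL-2 and IL-15. Il2ra and Il15ra encode the α chains that bind IL-2 and IL-15. The α chain for IL-15 can also present the cytokine to neighbouring cells. These receptors signal through Janus kinases to STAT factors, chiefly STAT5 and, for IL-21, STAT3, and they govern the survival, growth and memory of CD8+ T cells. The IL-12 receptor is a pair of chains (Il12rb1 and Il12rb2) that activates STAT4, and the IL-18 receptor is a pair (Il18r1 and Il18rap) of the IL-1 receptor family that signals through MyD88. IL-12 and IL-18 together are known inducers of interferon γ.

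Reads counted to genes totalled 16096121 to 17676062 per sample, and 14417 genes passed the filter on low counts, all 10 receptor genes among them. Levels are given as CPM (counts of a gene per 1000000 counts of its library, with the library total scaled by the TMM method), and tests are edgeR's quasi-likelihood F test with Benjamini-Hochberg adjustment over all 14417 genes. The 6 CD8+ T cell markers examined summed to 2789 to 3247 CPM in the 4 samples, and the CD4 T cell markers Cd4 and Cd40lg to 0.639 to 1.73 CPM. All 6 interferon response genes checked were higher in the IFNα samples, with a median log2 fold change of 6.06. The control samples differed more from each other than the IFNα samples did. Over the 10105 tested genes with a mean of at least 5 CPM, the median absolute log2 ratio was 0.265 between the controls. It was 0.0765 between the IFNα samples. In these genes the difference between the controls ran with gene length. The median log2 ratio of control 2 to control 1 went from -0.37 in the shortest of 5 length groups to 0.38 in the longest. The median log2 fold change, IFNα against control, went from -0.19 to 0.17 between the same length groups. The part of the difference between the controls in the results below was tested by leaving out each sample and by a length correction. That part was otherwise not tested. In RNA from a mixed population, fewer cells that express a gene and less RNA per cell cannot be told apart.

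Upon IFNα treatment 2 of the 10 receptor genes rose, Il15ra by 2.80-fold and Il18rap by 2.05-fold, and 8 did not pass the test at an adjusted p under 0.05. None of the 10 fell by edgeR's quasi-likelihood test, none was lower at an unadjusted p under 0.05, and 0 were called lower by limma-voom, by DESeq2 or by edgeR's other tests, the exact and the likelihood ratio test. Over all tested genes 1.43% passed as higher and 0.222% as lower. Those that both passed and were higher by more than 2-fold, as Il15ra and Il18rap were, made up 1.28%. In 8 of the 10 genes both IFNα samples lay above both controls, where 23.1% of all tested genes had that order and 23.4% had the opposite one, which 0 receptor genes had. The median log2 fold change was 0.38 over the 10 receptor genes and -0.01 over all tested genes. At an unadjusted p under 0.05, 5 of the 10 were higher and 0 lower, against 5.72% and 5.55% of all tested genes. Values above 0 on the log2 scale were found for 9 of the 10 and for 48.2% of all tested genes.

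**Figure D1:**
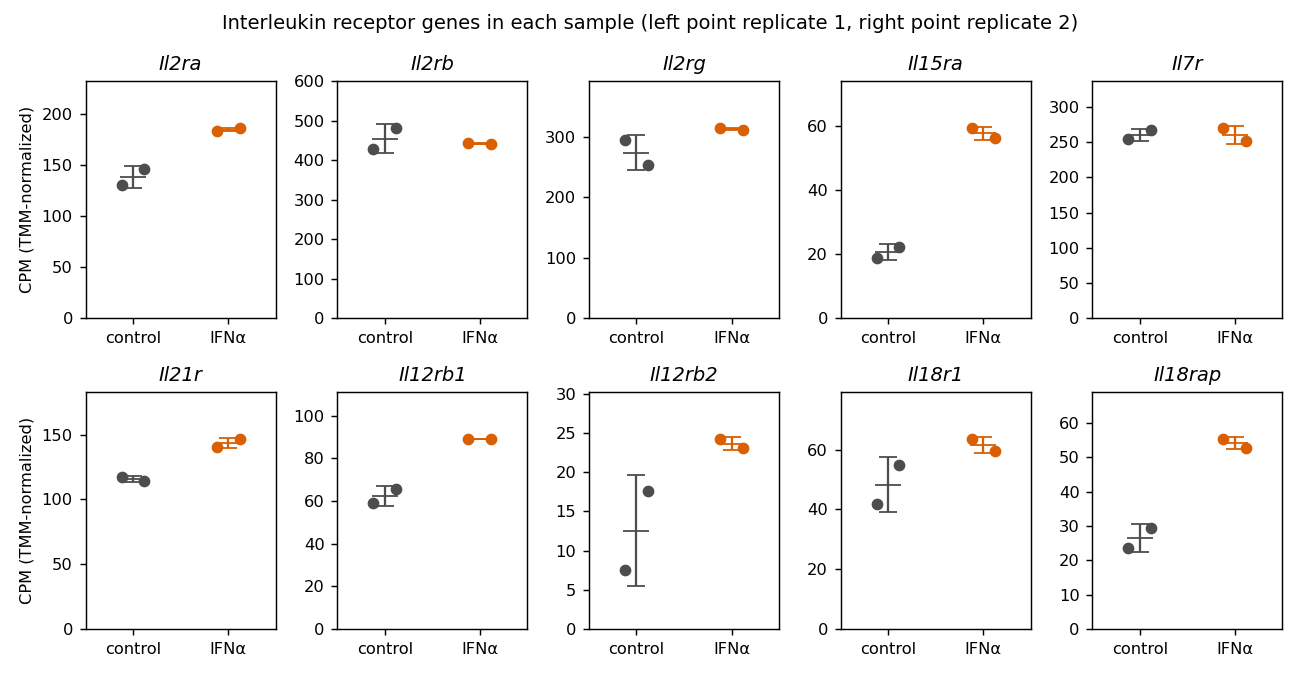
TMM-normalized CPM (vertical axes, each starting at 0) of the 10 receptor genes in the 2 control and 2 IFNα samples, with 1 point per sample and a bar of 1 SD either side of each group mean. The IFNα samples of Il15ra (59.3 and 56.3 CPM) and Il18rap (55.3 and 52.8 CPM) lie far above their controls, while those of Il7r (269 and 251 CPM) lie either side of theirs (254 and 267 CPM).

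Among the chains for IL-2 and IL-15, Il15ra (ENSMUSG00000023206, chromosome 2, 11705290 to 11734317, plus strand, GRCm38) had the largest change of the 10 genes. Its promoter windows are shown because only they, among the receptor promoters at hand, held the short motif given below. That motif was searched after the sequences were seen. The windows come from RefSeq (GRCm38.p6) and span 250 bases before to 50 bases after an annotated start, on the strand of the gene. Capitals mark matches to GAAANNGAA, read on both strands, a shortened form of the core of the interferon-stimulated response element.

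Il15ra, first start, chr2:11705043-11705342: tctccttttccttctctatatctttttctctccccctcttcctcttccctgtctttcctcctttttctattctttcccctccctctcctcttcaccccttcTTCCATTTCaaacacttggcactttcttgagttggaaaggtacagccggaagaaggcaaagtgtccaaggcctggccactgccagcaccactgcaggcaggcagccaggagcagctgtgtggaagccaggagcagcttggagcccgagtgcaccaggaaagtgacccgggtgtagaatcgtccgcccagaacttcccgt

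Il15ra, second start, chr2:11705462-11705761: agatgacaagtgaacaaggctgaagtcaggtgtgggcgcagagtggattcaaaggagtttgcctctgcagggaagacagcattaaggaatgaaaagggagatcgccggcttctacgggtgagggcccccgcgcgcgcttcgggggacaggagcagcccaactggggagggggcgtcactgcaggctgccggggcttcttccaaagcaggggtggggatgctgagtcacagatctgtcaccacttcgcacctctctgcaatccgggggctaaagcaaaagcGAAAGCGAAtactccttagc

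The first window holds the match on the reverse strand, 149 bases before the start, and the second holds it on the gene's own strand, with its first base at position 31 after the start. The shortened form was searched after the sequences were seen, and 8.56% of 32851 RefSeq promoter windows of this length hold it. The full core, which is GAAANNGAA with a further A at its end, was in 3.44% of all windows and in 0 of the 11 windows of the receptor genes. Windows were at hand for 8 of the 10 genes, and only the 2 windows of Il15ra held the shortened form.

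Il15ra was at 18.9 and 22.4 CPM in control replicates 1 and 2 and at 59.3 and 56.3 CPM in IFNα replicates 1 and 2. The groups did not overlap, and the lower IFNα sample was well above the higher control. The group means were 20.6 ± 2.47 CPM (SD, n = 2) and 57.8 ± 2.10 CPM (SD, n = 2), on 327 to 970 counts per sample. The log2 fold change was 1.49 (SE 0.15, 95% interval 1.13 to 1.84, adjusted p = 0.00876), which was above that of 98.3% of the tested genes. Il15ra passed the test in all 17 alternative analyses. Myeloid cells also express Il15ra, and the 5 myeloid markers examined summed to 15.95 to 18.0 CPM in the controls and 6.21 to 7.55 CPM in the IFNα samples. Most of that sum was Lyz2, which was lower, at -1.46 on the log2 scale (adjusted p = 0.0297), while Csf1r was at -0.02 (adjusted p = 0.989) and each of the other 3 had at most 12 counts in any sample. The part of such cells in the Il15ra values was not tested.

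Il2ra (ENSMUSG00000026770, chromosome 2, 11642807 to 11693193, plus strand), whose product CD25 is a hallmark of T cell activation, was at 131 and 146 CPM in the controls and 184 and 186 CPM in the IFNα samples. The groups did not overlap, and the IFNα mean was 1.33-fold the control mean. With a log2 fold change of 0.42 (SE 0.13, 95% interval 0.11 to 0.72), the gene had an unadjusted p of 0.0169 and did not pass after adjustment over all genes (adjusted p = 0.288). Regulatory T cells also carry high CD25. Their factor Foxp3 was at 0.347 and 2.96 CPM in the controls and at 1.57 and 2.38 CPM in the IFNα samples. Ikzf2 was at 22.7 and 35.8 CPM in the controls and at 45.0 and 44.4 CPM in the IFNα samples. The part of such cells in the Il2ra values was not tested.

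The shared chains changed less. Il2rb (ENSMUSG00000068227, chromosome 15, 78479256 to 78495271, minus strand) was at 429 and 481 CPM in the controls and 443 and 441 CPM in the IFNα samples, which lay between the controls. Its log2 fold change was -0.04 (SE 0.14, adjusted p = 0.922), with a 95% interval of -0.39 to 0.31. Il2rg (ENSMUSG00000031304, chromosome X, 101264378 to 101268255, minus strand) was at 295 and 254 CPM in the controls and 314 and 312 CPM in the IFNα samples. The IFNα samples were both higher, but the gap to control 1 was smaller than the distance between the controls, and the log2 fold change of 0.19 (SE 0.14, 95% interval -0.15 to 0.53) did not pass (adjusted p = 0.625). It was 0.31 without control 1, where it passed, 0.09 without control 2 and 0.32 with the correction for gene length.

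The private chains of the IL-7 and IL-21 receptors differed in their values. Il7r (ENSMUSG00000003882, chromosome 15, 9505788 to 9530176, minus strand), the chain that marks naive and memory T cells able to live on IL-7, was at 254 and 267 CPM in the controls and 269 and 251 CPM in the IFNα samples. The groups overlapped fully, the means were 260.3 and 260.4 CPM, and the 95% interval of the log2 fold change ran from -0.31 to 0.31 (adjusted p = 0.999). Il21r (ENSMUSG00000030745, chromosome 7, 125603429 to 125633570, plus strand) was at 117 and 114 CPM in the controls and 141 and 147 CPM in the IFNα samples. These groups did not overlap, and the log2 fold change of 0.31 (SE 0.12, 95% interval 0.02 to 0.60) had an unadjusted p of 0.0393 and an adjusted p of 0.420.

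**Figure D2:**
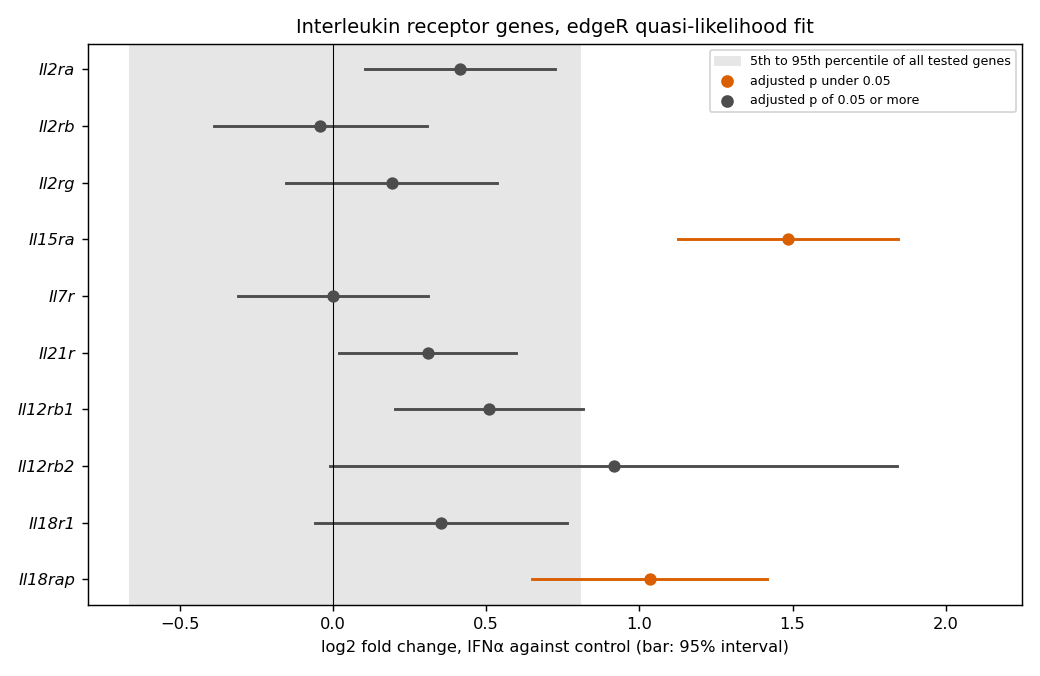
Log2 fold change of each receptor gene, IFNα against control (horizontal axis), as a point with its 95% interval from the edgeR quasi-likelihood fit on 2 samples per group. Grey spans the 5th to the 95th percentile of all tested genes, -0.66 to 0.81. The intervals of Il15ra (1.13 to 1.84) and Il18rap (0.65 to 1.42) lie to the right of 0 with an adjusted p under 0.05, and that of Il12rb2 (-0.01 to 1.84) is the widest.

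Both IL-12 receptor chains had higher values in the IFNα samples, and neither passed the test. Il12rb1 (ENSMUSG00000000791, chromosome 8, 70808449 to 70821424, plus strand), a chain that the receptor for IL-23 also uses, was at 59.2 and 65.7 CPM in the controls and 88.8 and 89.0 CPM in the IFNα samples. The groups did not overlap, and the log2 fold change was 0.51 (SE 0.12, 95% interval 0.20 to 0.82), with an unadjusted p of 0.0069 and an adjusted p of 0.185. Il12rb1 was the nearest to the threshold of the 8 genes that did not pass. It passed in 5 of the 17 alternatives, among them edgeR's likelihood ratio test (adjusted p = 0.0488) and the correction for gene length (adjusted p = 0.0499).

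Il12rb2 (ENSMUSG00000018341, chromosome 6, 67291318 to 67376188, minus strand), the chain that carries the STAT4 docking site, was at 7.51 CPM in control 1, 17.5 CPM in control 2, and 24.2 and 23.1 CPM in the IFNα samples. Both IFNα samples were the higher ones, and most of the spread lay between the controls, whose counts were 130 and 308. The log2 ratio of control 2 to control 1 was 1.22 (exact 95% interval for counting error 0.92 to 1.53), and 1.08% of 10105 genes with a mean of at least 5 CPM had a ratio as high. The log2 fold change was 0.92 (SE 0.37, 95% interval -0.01 to 1.84, adjusted p = 0.449). It was 0.43 without control 1 and 1.65 without control 2, so the choice of control sets its size. Il12rb2 overlaps Serbp1 on the opposite strand, a gene with 14932 to 20101 counts per sample, and the sources used here do not state whether counting used strand, so reads of the pair may not be told apart.

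The accessory chain of the IL-18 receptor rose, and the change of its ligand-binding partner did not pass the test. Il18rap (ENSMUSG00000026068, chromosome 1, 40515362 to 40551705, plus strand), the chain without which the receptor does not signal, was at 23.5 and 29.3 CPM in the controls and 55.3 and 52.8 CPM in the IFNα samples. The groups were well apart, on 407 to 910 counts per sample, with means of 26.4 ± 4.07 CPM (SD, n = 2) and 54.1 ± 1.72 CPM (SD, n = 2). The log2 fold change was 1.03 (SE 0.15, 95% interval 0.65 to 1.42, adjusted p = 0.0428), above that of 96.8% of the tested genes. The call was close to the threshold and was lost with scaling by total counts only (adjusted p = 0.0679), with a filter at a mean of 5 CPM (adjusted p = 0.0580) and without IFNα replicate 1 (adjusted p = 0.0729). Over all 17 alternatives the log2 fold change was 0.89 to 1.20. NK cells also carry the IL-18 receptor. The 3 NK cell markers examined summed to 1.21 and 1.03 CPM in the controls and 2.45 and 1.10 CPM in the IFNα samples. Klre1 was at 0.809 and 0.399 CPM in the controls and 2.01 and 1.05 CPM in the IFNα samples. Klrb1c was at 0.405 and 0.570 CPM in the controls and 0.439 and 0.058 CPM in the IFNα samples. Ncr1 had 1 count, in control 2. The part of such cells in the Il18rap values was not tested.

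The promoter window of Il18rap, the other receptor gene that rose, is also shown, and it held none of the motifs searched.

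Il18rap, chr1:40515112-40515411: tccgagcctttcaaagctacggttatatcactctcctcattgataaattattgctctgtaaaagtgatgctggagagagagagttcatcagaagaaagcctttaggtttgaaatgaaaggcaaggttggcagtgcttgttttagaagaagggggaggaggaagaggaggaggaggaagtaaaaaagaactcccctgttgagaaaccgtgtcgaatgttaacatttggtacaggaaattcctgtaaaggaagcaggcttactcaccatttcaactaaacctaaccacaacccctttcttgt

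The third motif searched was TTCNNNGAA, the palindromic element bound by STAT dimers, which 8.30% of all windows hold. It was in windows of Il7r, Il12rb2 and Il18r1, none of which passed the test. A match is a description of the letters and not evidence of binding.

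Il18r1 (ENSMUSG00000026070, chromosome 1, 40465552 to 40500854, plus strand), the chain that binds IL-18, was at 41.8 and 54.7 CPM in the controls and 63.6 and 59.8 CPM in the IFNα samples. The IFNα samples were both higher, by less than the distance between the controls in the nearest pair. The log2 fold change was 0.35 (SE 0.17, 95% interval -0.06 to 0.76, adjusted p = 0.510), and it was 0.17 without control 1 and 0.56 without control 2, where it passed.

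Levels per kilobase of gene length allow the chains to be set in order. In the controls the means were 115 CPM per kb for Il2rg, 106 for Il2rb, 55.8 for Il7r, 34.8 for Il21r, 24.3 for Il2ra, 15.2 for Il12rb1 and 10.03 for Il18r1, followed by 4.64 for Il15ra, 3.91 for Il18rap and 3.30 for Il12rb2. The samples of Il2rg and Il2rb overlapped, as did those of the lowest 3 genes, and the other neighbours in this order did not. In the IFNα samples Il15ra reached a mean of 13.0 CPM per kb, where its samples overlapped with those of Il18r1 at 12.8 CPM per kb. The rest of the order was Il2rg at 131, Il2rb at 103, Il7r at 55.8, Il21r at 43.2, Il2ra at 32.4, Il12rb1 at 21.7, Il18rap at 8.01 and Il12rb2 at 6.24 CPM per kb.

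The balance between chains of a receptor was taken as the ratio of their levels per kilobase within each sample and is given as a description without a test. The ratio of Il15ra to Il2rb was 0.0425 and 0.0449 in the controls and 0.129 and 0.123 in the IFNα samples. That of Il2ra to Il2rb was 0.229 in both controls and 0.312 and 0.317 in the IFNα samples. In both pairs the α chain took a larger part against the β chain with IFNα, in each sample. The ratio of Il18r1 to Il18rap was 2.49 and 2.62 in the controls and 1.61 and 1.59 in the IFNα samples, so the chains were closer to each other in level with IFNα. The ratio of Il12rb1 to Il12rb2 was 7.28 in control 1, 3.46 in control 2, and 3.39 and 3.56 in the IFNα samples, with control 1 standing alone. The ratio of Il2rb to Il2rg was 0.809 and 1.06 in the controls and 0.784 and 0.787 in the IFNα samples.

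**Figure D3:**
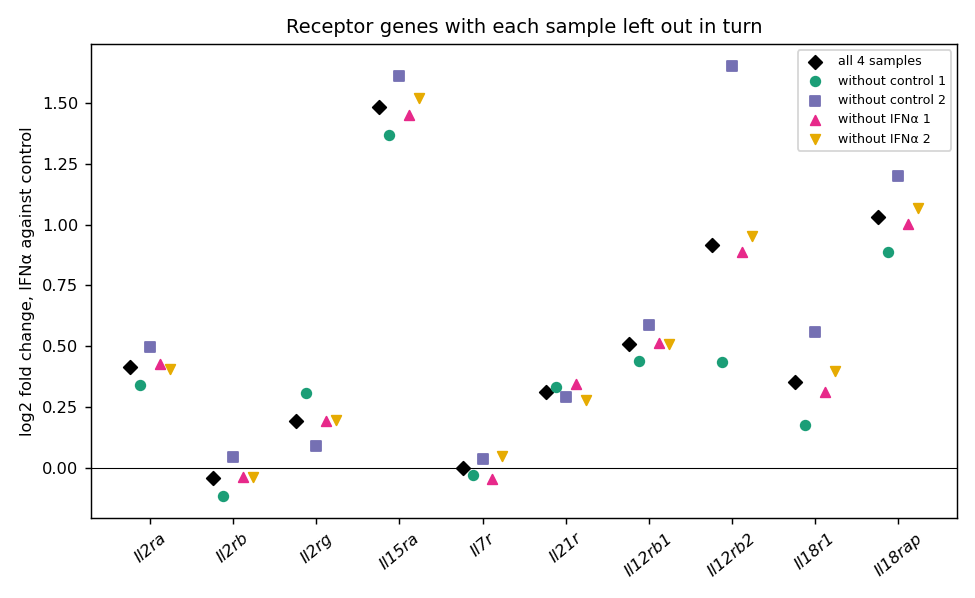
Log2 fold change of each receptor gene, IFNα against control (vertical axis), with all 4 samples and with each sample left out in turn. The points of Il15ra stay together, while those of Il12rb2 spread from 0.43 without control 1 to 1.65 without control 2.

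Leaving out single samples moved the number of receptor genes that passed from 2 to between 1 and 7. Without control 1 the 7 were Il2ra, Il2rg, Il15ra, Il21r, Il12rb1, Il12rb2 and Il18rap, and without control 2 the 7 were Il2ra, Il15ra, Il21r, Il12rb1, Il12rb2, Il18r1 and Il18rap. Calls rose across all genes in these fits, with 7.5% of the tested genes higher without control 1 and 22.8% without control 2. In these fits the remaining control is assumed to vary as little as the IFNα samples do. Without IFNα replicate 1, Il15ra alone passed, and without IFNα replicate 2, Il15ra and Il18rap passed.

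The genes that rose each lie beside another receptor gene of the group. Il15ra starts 12.1 kb beyond the end of Il2ra on chromosome 2, and Il18rap starts 14.5 kb beyond the end of Il18r1 on chromosome 1. Within 300 kb of the first pair, a window chosen after the values were seen, the log2 fold change was 0.30 for Pfkfb3 (adjusted p = 0.511), 0.02 for Rbm17, -0.08 for Fbxo18 and -0.05 for Ankrd16. Beside the second pair, Il1rl1, which encodes the receptor for IL-33 and ends just before Il18r1, rose from 1.85 and 1.65 CPM to 11.5 and 10.2 CPM (log2 fold change 2.62, adjusted p = 0.00467). Il18r1, which lies between Il1rl1 and Il18rap, had the smaller value given above. The other tested genes within 300 kb of this pair did not pass. Il1rl2 was at 0.64 (adjusted p = 0.547) and Mfsd9 at 1.18 (adjusted p = 0.548), the latter on 3 to 12 counts per sample.

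**Figure D4:**
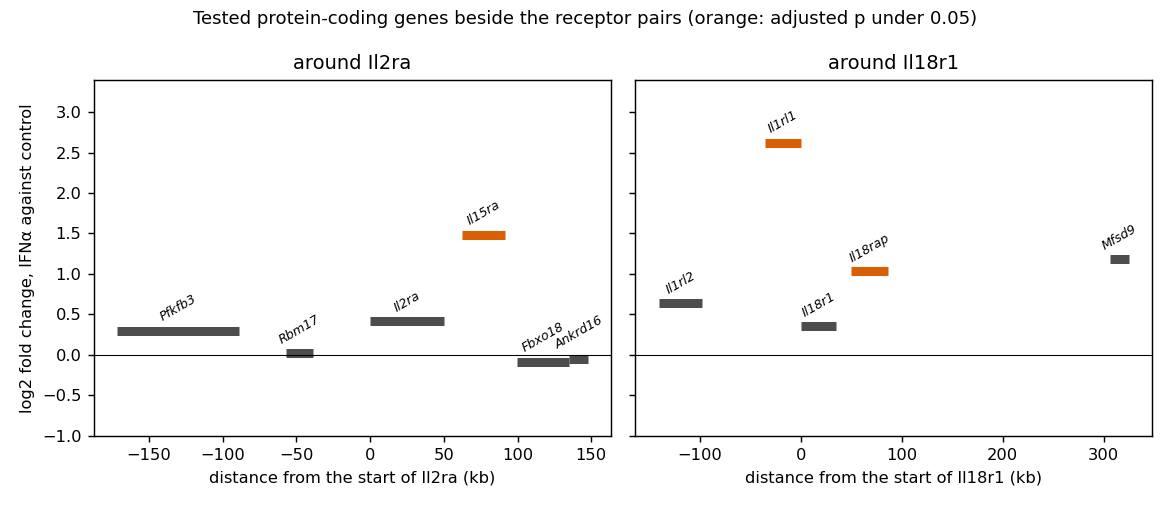
Log2 fold change, IFNα against control (vertical axis), of tested protein-coding genes within 300 kb of the Il2ra and Il15ra pair and of the Il18r1 and Il18rap pair, against distance in kb from the start of the gene named on each axis. Orange marks an adjusted p under 0.05, which Il15ra (1.49), Il18rap (1.03) and Il1rl1 (2.62) reached.

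Of 22 other cytokine receptor genes of lymphocytes, 15 were tested, and 2 rose (1.43% of all tested genes). These were Il1rl1 and Il10ra, the ligand-binding chain for IL-10, which was at 38.7 and 37.2 CPM in the controls and 234 and 230 CPM in the IFNα samples (log2 fold change 2.61, SE 0.12, adjusted p = 0.000486). Each of these changes was larger than that of Il15ra. The median of the 15 was 0.04, below the 0.38 of the 10 receptor genes. By edgeR's quasi-likelihood test 0 of the 15 fell, and the other tests run called 0 lower. Before adjustment 3 were higher and 1 lower, against the 5.72% and 5.55% of all tested genes.

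Genes for the receptors' own ligands were hardly expressed. Of the 7, Il7 had 0 counts in every sample, Il12a, Il12b and Il21 had at most 9 counts in any sample, and 3 were tested. By edgeR 0 of these 3 passed, also before adjustment, and the other tests called 0. The log2 fold change was 0.58 for Il15 (adjusted p = 0.683), 0.19 for Il18 (adjusted p = 0.868) and -0.19 for Il2 (adjusted p = 0.903), on few counts.

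In the signalling genes below the receptors, 0 of 9 Janus kinase and STAT genes passed by edgeR's quasi-likelihood test, although all 9 had a log2 fold change above 0 (48.2% of all tested genes), with a median of 0.20. At an unadjusted p under 0.05, 2 of the 9 were higher and 0 lower (5.72% and 5.55% of all tested genes). Jak2, the kinase bound by Il12rb2, was at 0.75 (adjusted p = 0.0911), and edgeR's exact and likelihood ratio tests and DESeq2 called it higher. Of 7 genes of IL-18 signalling, 0 passed by any of the tests. At an unadjusted p under 0.05, 1 was higher and 0 lower (5.72% and 5.55% of all tested genes). Il18bp, which encodes a secreted decoy for IL-18, was at 0.66 on that scale (adjusted p = 0.367), while Myd88, the adaptor of the receptor, was at 0.22 (adjusted p = 0.622).

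Among 15 genes known as targets of these receptors, 2 rose and 0 fell by edgeR's quasi-likelihood test (1.43% and 0.222% of all tested genes). Their median log2 fold change was 0.10. Ifng, the main product of IL-12 and IL-18 signalling, went from 9.94 and 10.3 CPM to 79.2 and 86.3 CPM (log2 fold change 3.03, adjusted p = 0.000408), and Gzmb, which encodes the cytotoxic protease granzyme B, changed by 3.47 on the log2 scale (adjusted p = 0.000543). Before adjustment 4 of the 15 were higher and 4 lower (5.72% and 5.55% of all tested genes). Both the exact test and the likelihood ratio test also called Osm, a cytokine of the IL-6 family, and Prf1, which encodes perforin, higher and Socs3, a feedback inhibitor of cytokine signalling, lower, and DESeq2 also called Prf1 higher.

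Of 12 transcription factor genes known to act on the receptor genes, 1 rose (1.43% of all tested genes). Eomes, a T-box factor known to drive Il2rb, was at 82.4 and 83.8 CPM in the controls and 253 and 248 CPM in the IFNα samples (log2 fold change 1.59, SE 0.12, adjusted p = 0.0030), while Il2rb itself was at 455 ± 36.6 and 442 ± 0.854 CPM (SD, n = 2 each). Klf2, which supports naive T cell circulation, was at -0.55 (adjusted p = 0.204), and edgeR's exact and likelihood ratio tests called it lower. By the quasi-likelihood test 0 of the 12 fell. Before adjustment 3 were higher and 1 lower (5.72% and 5.55% of all tested genes).

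The counts in these lists rested on the controls used, as those of the receptor genes did. Without control 1, 5 of the other cytokine receptors, 2 Janus kinase and STAT genes, 1 gene of IL-18 signalling, 9 targets and 4 transcription factors passed in either direction, as did 13.8% of all tested genes. Without control 2 these numbers were 11, 8, 3, 11 and 10, and 44.4% of all tested genes passed.

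**Figure D5:**
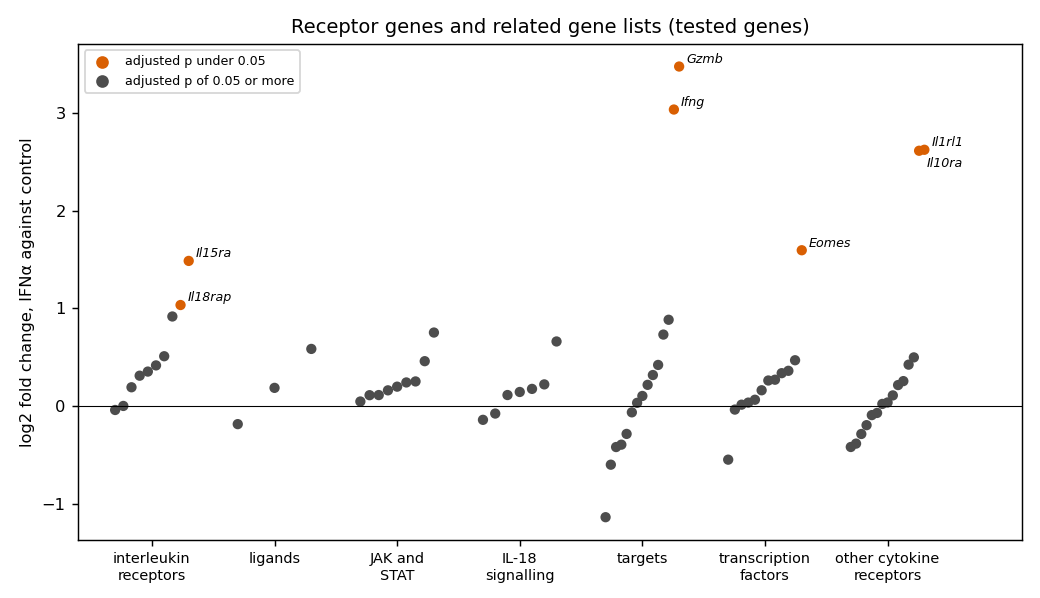
Log2 fold change, IFNα against control (vertical axis), of the 10 receptor genes and of the tested members of 6 related lists, 1 point per gene. The receptor genes have a median of 0.38 and the other cytokine receptors one of 0.04, and Il10ra (2.61), Gzmb (3.47) and Ifng (3.03) stand above the receptor genes.

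The tested genes with the pattern most like that of Il15ra, by the Euclidean distance of mean-centred log2 CPM over the 4 samples, were Mb21d1 (distance 0.0516), Adar (0.0728) and Trim34a (0.0826). Mb21d1, which encodes the DNA sensor cGAS, was at 14.97 and 17.1 CPM in the controls and 47.6 and 44.9 CPM in the IFNα samples. Adar encodes an RNA-editing enzyme and Trim34a a member of the TRIM family. Their log2 fold changes were 1.49 and 1.53, next to 1.49 for Il15ra, a likeness set in advance by the choice on distance.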

How the data were processed

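RNA-seq libraries of 2 control and 2 IFNα samples of CD8+ T cells were made by the authors with a NEBNext Ultra kit, sequenced on an Illumina HiSeq and mapped with Hisat2. The authors deposited raw read counts per gene, which HISAT2 and featureCounts of Subread produced per the submitters' processing notes. The version of the counter and its strand setting are not stated in those sources. The notes name the mm9 build, but the deposited coordinates of 53462 of 54532 genes, the 10 receptor genes among them, match GENCODE M21 on GRCm38, and coordinates are given in that build.

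Tests of the counts used edgeR 4.0.16 under R 4.3.3, and alternatives also DESeq2 1.42.0 and limma 3.58.1. Genes were kept by filterByExpr (minimum count 10, total 15), scaled by TMM and fitted with glmQLFit (robust) with 1 term for the condition on all 4 samples, followed by glmQLFTest. Residual degrees of freedom were 2. The threshold for a call was 0.05 on the Benjamini-Hochberg adjusted p. Standard errors are the fold change divided by the square root of F, and 95% intervals use the moderated degrees of freedom. Counting intervals cover counting error only. The fit was also run on simulated data, drawn with the same spread in every sample and no trend with gene length. That run cannot show how the fit handles the difference between the controls. Alternatives were other scalings, filters and tests, a length offset (lowess span 0.3), replicate blocks and leaving out each sample.

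The members and lists were chosen with earlier results of these data known. Named genes were the 10 receptor genes and, from each related list, up to 4 passing genes, largest change first (where under 2 passed, the 2 of smallest p), plus the 3 genes with the pattern nearest to the most changed receptor gene. One gene that the rule names is not reported here. Neighbouring genes, Osm, Prf1 and Socs3 were named after their values were seen. Promoter windows came from RefSeq tables (GRCm38.p6).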

Additional observations from a re-analysis of the deposited data

How the results depend on the processing

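In 17 alternative analyses Il15ra passed each time (log2 fold change 1.37 to 1.61) and Il18rap in 14. The number of receptor genes that passed, 2 in the analysis reported, was 1 with total counts only and with a mean CPM of at least 5, 4 with a crossed replicate block added after seeing the data, and 1 to 7 when each sample was left out. It was 3 by the likelihood ratio test and with the length offset. Of all 14417 tested genes, 206 were called higher in the analysis reported and 182 with total counts only. The likelihood ratio test called 430 higher, the length offset 358 and the crossed block 743. With a mean CPM of at least 5, 180 of 10105 genes were called higher. Samples with the same number tended to deviate in opposite directions (correlation -0.306). The difference between the controls ran with gene length, so this value cannot decide whether the numbers pair the samples. With the replicate as a block 2 receptor genes passed. With a 2-fold minimum the number was 1 with upper-quartile scaling, total counts only, a mean CPM of at least 5 and the length offset, and 1 to 3 with samples left out. Over all genes 205 passed with that minimum, against 321 with no filter, 382 by the exact test, 392 by the likelihood ratio test, 428 with the crossed block and 239 to 1233 with samples left out. Among the genes named by the rule the sign changed for 3. Il7r was at -0.065 with upper-quartile scaling, -0.048 with total counts only, -0.0016 with no filter, -0.00019 with the replicate block, -0.00017 with the crossed block and -0.047 to 0.0496 with samples left out, where Il2rb was at -0.118 to 0.0447 and Il18 at -0.058 to 0.40. The cause of these moves was not tested. Depth limits mainly the ligand genes, with at most 23 counts per sample.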

Other observations

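Another 14 genes named as interleukin receptors by symbol, a selection made after the data were seen, were in neither list above. Of these, 6 had 0 counts in all 4 samples and 3 passed the filter on low counts. Il1rl2, a chain of the receptor for IL-36 that lies beside Il18r1, was at a log2 fold change of 0.64 (adjusted p = 0.547). Il11ra1, which binds IL-11, was at -0.39 (adjusted p = 0.564), and Il20rb, shared by receptors of the IL-20 group, was at -0.07 (adjusted p = 0.893) by edgeR's quasi-likelihood test.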
